A study of Arabidopsis thaliana with 12 samples.

Results

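The PLETHORA genes PLT1, PLT2, PLT3, PLT5 and PLT7 and the radial patterning genes SHR and SCR were followed in Arabidopsis thaliana root explants in which the floral regulator LEAFY (LFY) could be switched on. These 7 genes were chosen by name, 5 PLETHORA genes plus SHORT-ROOT (SHR) and SCARECROW (SCR), out of 37336 genes in the count files. All 12 libraries came from plants of the cultivar L.er with the transgene 35S:LFY-GR, in which the constitutive 35S promoter drives LFY fused to the hormone-binding part of the glucocorticoid receptor, so that the steroid dexamethasone lets the fusion enter the nucleus. Roots of 3-week-old seedlings were kept for 5 days on callus inducing medium (CIM) and received dexamethasone (dex) or mock solution for the last 1 h, 6 h or 24 h of them, with 2 replicates (A and B) in each of the 6 groups. Every library carried the transgene, so an effect of dexamethasone itself and an effect of LFY-GR activation cannot be told apart here. Nothing in the labels says whether the replicates were separate cultures, and the p-values measure only the spread between these libraries.

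PLETHORA proteins are AP2-type transcription factors. PLT1 and PLT2 form a gradient with its peak at the root stem cell niche, where they specify and maintain stem cells. PLT3, PLT5 and PLT7 act early in lateral root primordia and in callus, which forms on CIM along a root-like path, and there they give cells the capacity to regenerate shoots. SHR and SCR are GRAS-family regulators: SHR is made in the stele and moves outward into the next layer, where SCR holds it in the nucleus, and the pair specifies endodermis and supports the quiescent centre.

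The annotation used for position, RefSeq on TAIR10.1, names PLT3 as AIL6, PLT5 as AIL5 and PLT7 as AIL7. PLT1 (AT3G20840) lies on chromosome 3 from 7300444 to 7303693, PLT2 (AT1G51190) on chromosome 1 from 18977176 to 18980618, and PLT5 (AT5G57390), read from the minus strand, on chromosome 5 from 23252989 to 23256703. PLT3 (AT5G10510) and PLT7 (AT5G65510) also lie on chromosome 5, from 3315401 to 3320323 and from 26185593 to 26189571. SHR (AT4G37650) spans 17691687 to 17693859 on chromosome 4, and SCR (AT3G54220) spans 20069987 to 20072878 on chromosome 3. The PLETHORA genes have 8 or 9 exons in their longest transcript, SCR has 2 and SHR has 1. PLT3 shares 454 exonic bases, 14.7% of its exon length, with AT5G10520 on the opposite strand, so its level is less certain than that of the other 6, which overlap no annotated gene.

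The 250 bases before the annotated start of PLT1, PLT5 and PLT7 are shown because these are the 3 genes that changed at 24 h. Capitals mark the auxin response elements found by the search below. Each reads 5′ to 3′ on the strand of its gene, from the Columbia reference TAIR10.1 and not from the L.er plants used. PLT1 is at chr3:7300194-7300443 (plus), PLT5 at chr5:23256704-23256953 (minus) and PLT7 at chr5:26185343-26185592 (plus).
PLT1: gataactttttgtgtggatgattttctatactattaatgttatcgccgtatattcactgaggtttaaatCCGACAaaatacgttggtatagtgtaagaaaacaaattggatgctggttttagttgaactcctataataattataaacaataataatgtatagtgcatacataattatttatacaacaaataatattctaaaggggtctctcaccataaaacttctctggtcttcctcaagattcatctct
PLT5: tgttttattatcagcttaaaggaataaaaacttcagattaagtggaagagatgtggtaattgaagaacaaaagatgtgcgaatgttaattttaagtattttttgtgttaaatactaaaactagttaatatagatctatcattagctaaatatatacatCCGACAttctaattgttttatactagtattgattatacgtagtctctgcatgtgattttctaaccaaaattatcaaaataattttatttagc
PLT7: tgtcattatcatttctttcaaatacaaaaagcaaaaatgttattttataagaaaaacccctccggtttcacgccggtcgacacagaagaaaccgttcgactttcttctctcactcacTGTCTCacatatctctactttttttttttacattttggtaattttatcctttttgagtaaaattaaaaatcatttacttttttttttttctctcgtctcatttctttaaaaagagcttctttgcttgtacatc

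Motifs were searched by their letters on both strands. The core of the LFY recognition sequence, CCANTGG, was in none of the 7 promoters, against 3.057% of 27443 promoters of the same length. Its first 6 letters, CCANTG, were in none of the 7 either, against 20.8% of all promoters. The auxin response element TGTCTC was in the PLT7 promoter only, against 10.95% of all promoters. The variant TGTCGG, which reads CCGACA on the other strand, was in PLT1, PLT3 and PLT5, against 4.161% of all promoters, and lay 181 to 176 bases before the start in PLT1, 212 to 207 in PLT3 and 92 to 87 in PLT5. A match of letters is not a bound site, and the absence of a match applies to this window only.

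PLT3 and PLT7, closely related members of the family, also shared the best-matching ungapped stretch of any pair of the 7 promoters. It is 43 bases long with 39 identical positions, given in capitals below, and begins 102 bases before the start in PLT3 (chr5:3315299-3315341) and 199 bases before it in PLT7 (chr5:26185394-26185436).
PLT3: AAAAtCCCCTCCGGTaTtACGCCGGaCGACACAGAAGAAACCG
PLT7: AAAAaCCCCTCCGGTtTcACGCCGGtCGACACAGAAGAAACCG
The next best pair, PLT7 with SHR, had 17 identical positions over 19 bases.

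Sequencing gave between 18511462 and 66789371 reads assigned to genes per library, with a median of 50728668, and reads tallied as not unique made up 6.90% to 22.2%. The 24 h dex libraries had 11.7% (A) and 6.90% (B) of such reads, against 22.2% and 13.0% in the 24 h mock libraries. Levels of LFY, which sum the transgene and the gene itself, were 916 and 801 CPM (read counts scaled to the size of each library) in 24 h dex and 596 and 541 CPM in 24 h mock (log2 fold change 0.60). In bulk tissue, fewer cells of a type and less RNA per cell cannot be told apart.

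All 7 genes were well measured, with 600 to 55384 reads each per library. Per exon length, PLT3 was by far the most abundant, at 227 to 355 RPKM (CPM divided by the exon length in kilobases) across the 12 libraries, which placed its mean at the 99.0 percentile of 28477 genes. PLT3 made up 63.7% to 77.6% of the summed RPKM of the 5 PLETHORA genes. SHR (33.6 to 61.3 RPKM), PLT7 (28.5 to 74.4), PLT1 (36.2 to 54.2) and SCR (33.0 to 45.1) formed a middle group whose ranges overlapped. PLT2 (16.0 to 19.6 RPKM) and PLT5 (9.48 to 19.8) were lowest, with means at the 75.4 and 70.4 percentiles.

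**Figure D1:**
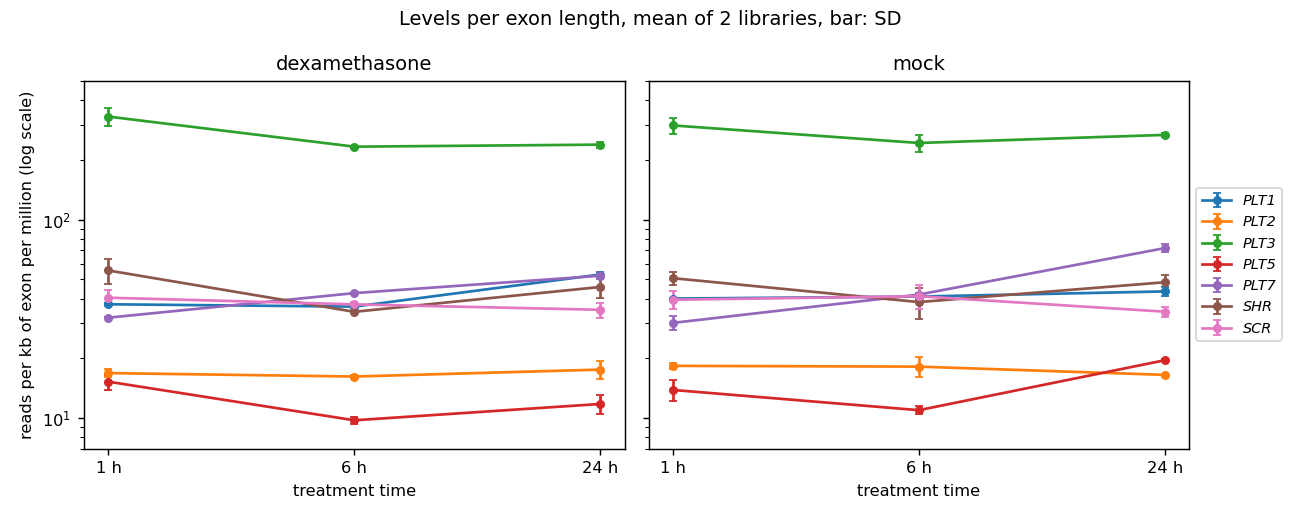
Levels per exon length (RPKM, log scale) of the 7 genes at 1 h, 6 h and 24 h in dex (left) and mock (right) explants. Points are means of 2 libraries and bars are SD. PLT3 stands apart from 227 RPKM upward, and PLT7 leads the other 6 genes in 24 h mock at 71.9 ± 3.53 RPKM.

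The order within the middle group depended on time and treatment. In 24 h dex, PLT1 was at 52.9 ± 1.83 RPKM and PLT7 at 52.2 ± 2.07 RPKM (SD, n = 2). These did not differ beyond their spread, and SHR followed at 45.8 ± 5.48 RPKM. That tie rests on the summed exon length of PLT7, 1945 bases. By its longest transcript, 1655 bases, PLT7 was at 61.3 RPKM in 24 h dex and 84.5 RPKM in 24 h mock, while PLT1 kept its values. In 24 h mock, PLT7 at 71.9 ± 3.53 RPKM stood above SHR at 48.4 ± 4.16 RPKM and PLT1 at 43.5 ± 2.30 RPKM. The SD of the last pair overlapped, but SHR was the higher in each library (51.3 against 45.1 RPKM in A, 45.4 against 41.9 RPKM in B). PLT5 was the lowest of the 7 in 24 h dex (11.8 ± 1.23 RPKM, against 17.6 ± 1.81 RPKM for PLT2). In 24 h mock the order of that pair was turned, with PLT5 at 19.6 ± 0.28 RPKM and PLT2 at 16.5 ± 0.0028 RPKM.

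**Figure D2:**
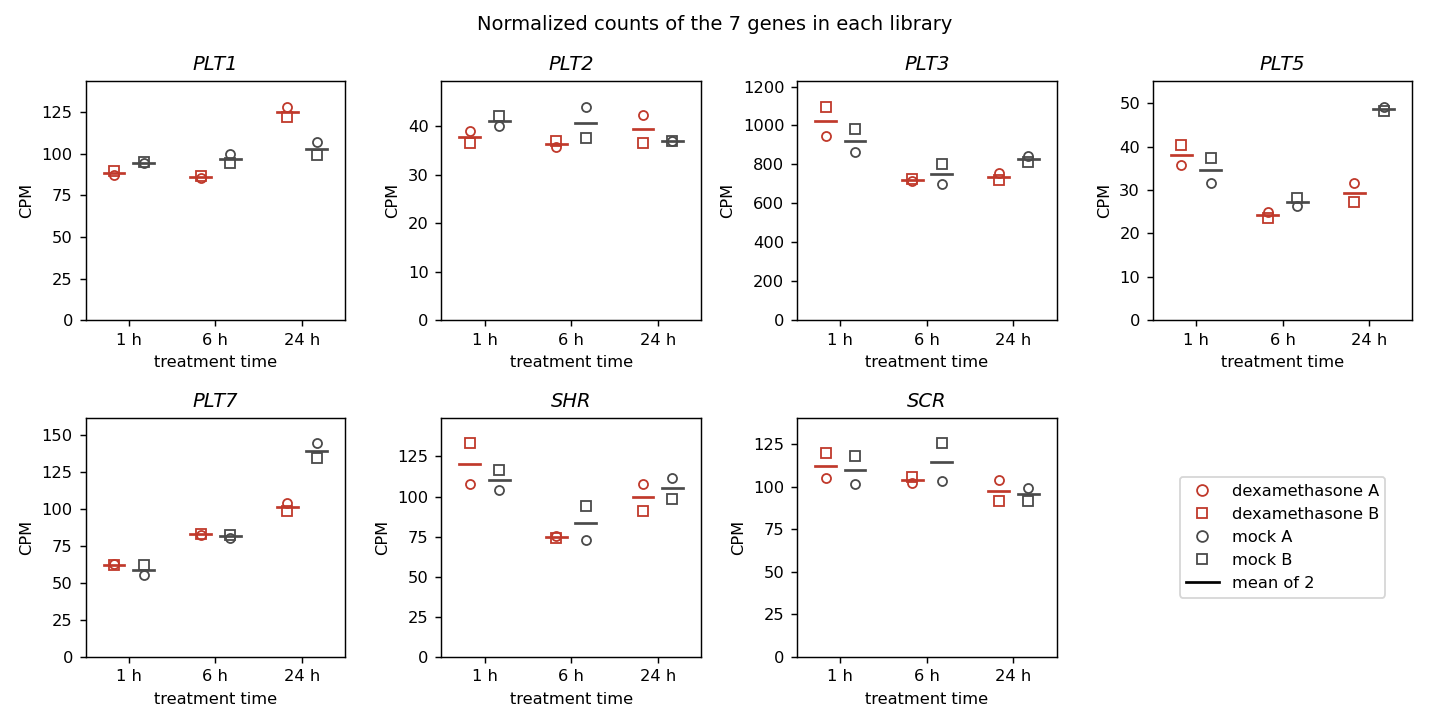
Normalized counts (CPM, each axis from 0) of the 7 genes in every library, dex left of mock at each time. Circles are replicate A, squares are replicate B and lines are means of 2. At 24 h both dex libraries lie below both mock libraries for PLT3, PLT5 and PLT7 and above them for PLT1. Over all genes at 24 h, 29.1% lay below and 28.6% above in this way.

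The first question was whether the PLETHORA genes and SHR-SCR responded to dexamethasone, tested at each time with edgeR's quasi-likelihood test on 4 libraries, with p-values adjusted over all genes tested and calls made under 0.01. At 24 h, 3 of the 7 changed, all of them PLETHORA genes: PLT1 rose and PLT5 and PLT7 fell. Over all 19288 genes tested at 24 h, 15.5% were called, 6.77% higher and 8.76% lower in dex. The median log2 fold change of the 7 was -0.08, beside 0.01 over all genes.

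PLT5, which acts in lateral root primordia and callus, had 31.5 CPM (A) and 27.1 CPM (B) in 24 h dex, against 49.2 and 48.2 CPM in 24 h mock. Both dex libraries lay below both mock libraries, by at least 1.53-fold. The log2 fold change was -0.73 (SE 0.091, edgeR adjusted p = 6.79e-08), to 0.602 of mock. It ranged over -0.84 to -0.63 with any of the 4 libraries omitted and was called each time.

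PLT7, the second of the genes with that role, had 104 and 98.6 CPM in 24 h dex, against 145 and 135 CPM in 24 h mock. The groups did not overlap, and the log2 fold change was -0.46 (SE 0.062, edgeR adjusted p = 2.97e-07). Without each library in turn it was -0.51 to -0.41 and remained called.

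PLT3, the most abundant of the family, had 755 and 720 CPM in 24 h dex and 842 and 810 CPM in 24 h mock. The dex libraries were the lower pair here too, by a log2 fold change of -0.16 (SE 0.052), which did not pass the threshold (edgeR adjusted p = 0.0222). It did pass with DESeq2 (adjusted p = 0.00666), which called 8.17% of all genes at 24 h. The groups of this gene did not overlap, as for 28.6% of all genes in the higher and 29.1% in the lower direction at 24 h.

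PLT1, a gene of the stem cell niche gradient, ran the other way. It had 128 and 122 CPM in 24 h dex, against 107 and 99.1 CPM in 24 h mock, and the dex libraries were the higher pair. The log2 fold change was 0.29 (SE 0.062, edgeR adjusted p = 0.000574), a 1.22-fold rise. It fell to 0.23 without mock replicate B and was then not called (adjusted p = 0.037), and the fit over all 12 libraries gave 0.28 with an adjusted p of 0.018.

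PLT2, which overlaps PLT1 in function, had 42.3 and 36.5 CPM in 24 h dex and 37.0 CPM in each 24 h mock library. Its dex libraries lay on both sides of the mock pair (log2 fold change 0.09, SE 0.091, edgeR adjusted p = 0.553). The difference between the responses of PLT1 and PLT2 was not tested.

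SHR had 108 and 91.1 CPM in 24 h dex and 112 and 98.7 CPM in 24 h mock, and SCR had 104 and 91.5 CPM in dex and 99.4 and 91.6 CPM in mock. For both genes the groups overlapped, and replicate A was higher than replicate B under either treatment. The log2 fold changes were -0.08 (SE 0.071, edgeR adjusted p = 0.497) for SHR and 0.03 (SE 0.067, edgeR adjusted p = 0.792) for SCR, so a change beyond the replicate spread was not detected.

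The ratios of PLT1 to PLT7 and to PLT5 within each library are given as a description. Such a ratio also rises when only its denominator falls, so it does not show a rise of PLT1. Per exon length, PLT1 was 1.01 and 1.02 times PLT7 in 24 h dex, against 0.607 and 0.603 times in 24 h mock. PLT1 was 4.29 and 4.74 times PLT5 in 24 h dex, against 2.28 and 2.16 times in 24 h mock. A ratio within a library does not depend on the scaling between libraries, but its size depends on the gene lengths used. By longest transcript, PLT7 in 24 h dex was at 61.3 RPKM, above PLT1 at 52.9 RPKM.

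**Figure D3:**
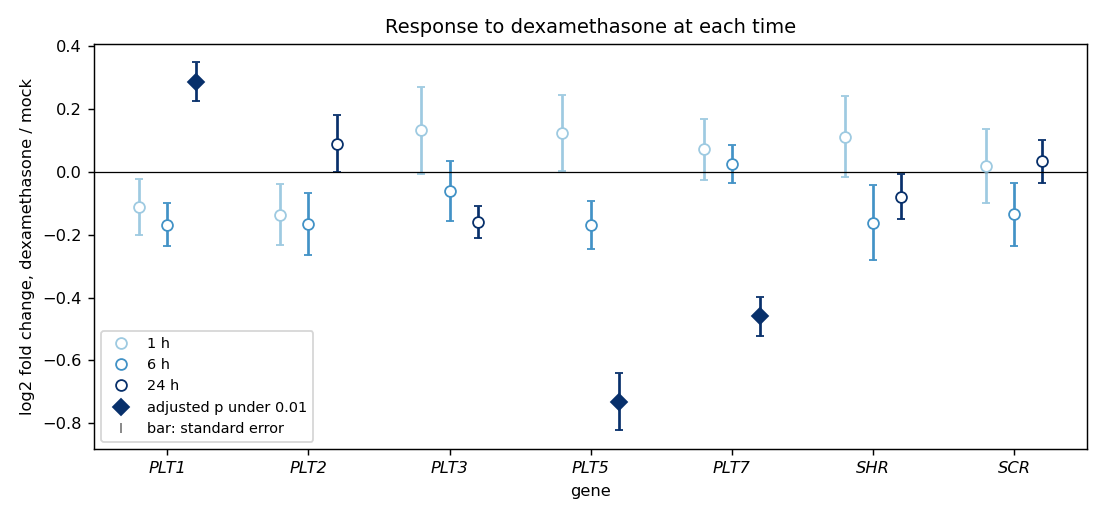
Log2 fold change, dex over mock, of the 7 genes at 1 h, 6 h and 24 h from edgeR. Bars are standard errors and filled diamonds mark adjusted p under 0.01, which were PLT1 (0.29), PLT5 (-0.73) and PLT7 (-0.46) at 24 h.

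With the shorter treatments none of the 7 was called. At 1 h their log2 fold changes ran between -0.14 and 0.13 (edgeR adjusted p from 0.953 to 0.984). The share called over all 20447 genes was 0%, with 4.31% at an unadjusted p under 0.05 and 0.201% called by DESeq2, and none of the 7 was among these. At 6 h the log2 fold changes ran between -0.17 and 0.02, with PLT5 and PLT1 lowest at -0.17 each (SE 0.075 and 0.068, edgeR adjusted p = 0.444 and 0.42). The share called over all genes at 6 h was 0.0048%, with 11.9% at an unadjusted p under 0.05 and 0.711% called by DESeq2.

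The values at 1 h and 6 h were close between dex and mock. PLT5 had 35.6 and 40.3 CPM in 1 h dex against 31.5 and 37.5 CPM in 1 h mock, and 24.9 and 23.6 CPM in 6 h dex against 26.4 and 28.2 CPM in 6 h mock. PLT7 had 62.6 and 62.2 CPM in 1 h dex against 55.4 and 62.0 CPM in 1 h mock, and 82.6 and 83.3 CPM in 6 h dex against 80.5 and 82.7 CPM in 6 h mock. PLT1 had 87.5 and 89.9 CPM in 1 h dex against 94.3 and 95.3 CPM in 1 h mock, and 85.7 and 87.0 CPM in 6 h dex against 99.7 and 94.4 CPM in 6 h mock. Both dex libraries of PLT1 thus lay below both mock libraries at 1 h and 6 h without passing the test, and above them at 24 h. Of the 7 genes, 1 lay above mock without overlap at 1 h (PLT7) and 2 below (PLT1 and PLT2), where 16.7% of all genes lay above and 14.2% below. At 6 h the dex libraries of PLT1, PLT2 and PLT5 lay below mock without overlap, as for 22.8% of all genes. The 6 h dex libraries were close to each other, and leaving out mock replicate A or B at 6 h left a fit that called 5 or 2 of the 7, along with 8232 or 2939 of all genes.

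Whether the response differed between times was tested as a difference of log2 fold changes in a fit over all 12 libraries. From 1 h to 24 h the response became more negative for PLT5, by -0.87 (SE 0.15, edgeR adjusted p = 0.00414), and for PLT7, by -0.55 (SE 0.10, edgeR adjusted p = 0.00714). These were 2 of the 7, against 4.74% of 21241 genes tested, 2.99% in that direction. Both calls were lost without mock replicate A of 1 h, without either mock replicate of 24 h, or without dex replicate B of 24 h, where PLT5 gave -0.89 to -0.75 (adjusted p 0.018 to 0.0244). The PLT7 call was also lost without either 6 h dex library or dex replicate A of 24 h, with values from -0.63 to -0.47 over all libraries left out. The differences of PLT1 were 0.38 between 24 h and 1 h (edgeR adjusted p = 0.0307) and 0.45 between 24 h and 6 h (edgeR adjusted p = 0.013), neither called. Between 24 h and 6 h, 0 of the 7 were called by edgeR, against 4.43% of all genes. PLT7 gave -0.49 (edgeR adjusted p = 0.0137) and PLT5 gave -0.56 (edgeR adjusted p = 0.0399) there. PLT1, PLT5 and PLT7 had an unadjusted edgeR p under 0.05, as did 22.1% of all genes. DESeq2 called 2 of the 7 there (PLT1 and PLT7) and 5.77% of all genes. Between 6 h and 1 h, 0 of the 7 were called, against 0.0612% of all genes, with 8.67% at an unadjusted p under 0.05 and 0.178% called by DESeq2.

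All explants were taken at the end of the 5 days, so the mock groups differ in the length of the mock treatment and not in the age of the culture, and they were compared in the same way. PLT7 was at 145 and 135 CPM in 24 h mock, against 55.4 and 62.0 CPM in 1 h mock, a log2 fold change of 1.25 (SE 0.075, 2.38-fold, edgeR adjusted p = 4.77e-07). PLT5 was at 49.2 and 48.2 CPM in 24 h mock, against 31.5 and 37.5 CPM in 1 h mock (log2 fold change 0.50, SE 0.11, edgeR adjusted p = 0.00369). These were 2 of the 7, against 24.5% of all genes, 10.2% higher. The PLT5 call was lost without mock replicate A of 1 h (0.38) or either mock replicate of 24 h (0.48 and 0.51). In 24 h dex, PLT7 at 104 and 98.6 CPM remained above every 1 h library, and PLT5 at 31.5 and 27.1 CPM was at or below every 1 h library.

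At 6 h, PLT7 alone was called in mock against 1 h mock (log2 fold change 0.47, SE 0.073, edgeR adjusted p = 0.000863), which is 1 of 7 against 14.6% of all genes, 5.34% higher. That call was lost without mock replicate A of 1 h (0.40, adjusted p = 0.0124). SHR was at 73.1 and 94.0 CPM in 6 h mock, against 104 and 116 CPM in 1 h mock (log2 fold change -0.40, edgeR adjusted p = 0.0572). PLT3 was at 701 and 803 CPM in 6 h mock, against 862 and 981 CPM in 1 h mock (log2 fold change -0.29, edgeR adjusted p = 0.0597). Any batch that goes with the length of treatment cannot be told apart from it, and the 24 h libraries were the least deeply sequenced.

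Other genes of the pathways were then read from 4 lists with 30 genes. Of the family relatives, ANT, a regulator of organ growth, and BBM, an embryo and root regulator, gave log2 fold changes of 0.01 and -0.02 at 24 h, and neither was called. None of the lists held a called gene at 1 h or 6 h. At 24 h the lists held 8 called genes of 25 tested, beside the 15.5% of all genes.

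**Figure D4:**
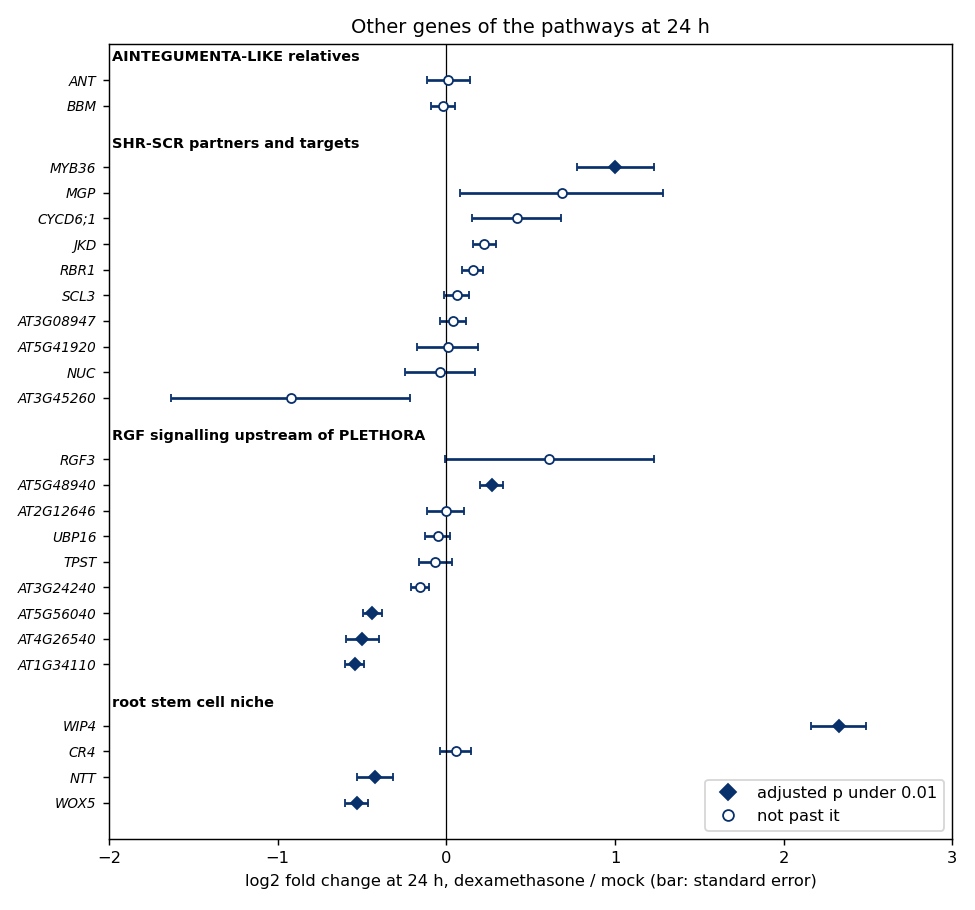
Log2 fold change at 24 h, dex over mock, of the tested genes of the 4 lists. Bars are standard errors and filled diamonds mark edgeR adjusted p under 0.01. Of the called genes, WIP4 lies farthest right at 2.33, and MYB36 at 1.00, while 3 receptor-like kinase genes, WOX5 and NTT lie left of 0. Genes that were not called lie on both sides, with AT3G45260 farthest left at -0.92.

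The root stem cell niche list had 4 of 6 genes tested, of which 1 rose and 2 fell. WIP4 encodes a WIP-domain zinc finger protein that acts with NTT and WIP5 in founding the root meristem of the embryo. It had 22.5 and 18.3 CPM in 24 h dex, against 3.75 and 4.40 CPM in 24 h mock, a log2 fold change of 2.33 (SE 0.16, 5.02-fold, edgeR adjusted p = 6.24e-14). WIP4 lies on chromosome 3 from 7313538 to 7315883, 9844 bases beyond PLT1 with 4 annotated genes between them. WIP5 lies likewise on chromosome 1, 9132 bases beyond PLT2 with 2 annotated genes between them. PLT2 was not called at 24 h and WIP5 was too low to be tested, and a link by position was not tested. NTT had 22.7 and 19.4 CPM in 24 h dex, against 28.9 and 27.6 CPM in 24 h mock (log2 fold change -0.42, SE 0.11, edgeR adjusted p = 0.00306). WOX5, which marks and maintains the quiescent centre, had 64.6 and 65.6 CPM in 24 h dex, against 91.5 and 97.4 CPM in 24 h mock (log2 fold change -0.53, SE 0.068, edgeR adjusted p = 9.76e-08). CR4, the receptor kinase known as ACR4, was at 0.05 and not called.

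RGF peptides are secreted, sulfated root meristem growth factors that raise PLETHORA protein levels through receptor kinases. In the list named for this path, 9 of 11 genes were tested at 24 h, and 1 rose and 3 fell, all of them leucine-rich repeat receptor-like kinase genes. AT1G34110 had 761 and 679 CPM in 24 h dex, against 1078 and 1027 CPM in 24 h mock (log2 fold change -0.54, SE 0.055, edgeR adjusted p = 6.77e-10). AT4G26540 and AT5G56040 (SKM2) had log2 fold changes of -0.50 and -0.44 (edgeR adjusted p = 0.000174 and 6.44e-08). AT5G48940 had 97.6 and 91.4 CPM in 24 h dex, against 75.1 and 82.3 CPM in 24 h mock (log2 fold change 0.27, SE 0.068, edgeR adjusted p = 0.00278). TPST, the enzyme that sulfates the peptides, was at -0.06 and UBP16, a deubiquitinating enzyme, at -0.05, neither called. RGF3 was at 0.61 with an SE of 0.62.

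Of the 10 partners and targets of SHR and SCR, 1 was called at 24 h. MYB36, which drives endodermal differentiation, had 7.03 and 7.65 CPM in 24 h dex, against 4.45 and 2.84 CPM in 24 h mock (log2 fold change 1.00, SE 0.23, edgeR adjusted p = 0.000966). The call rested on 62 to 178 reads per library and was lost without mock replicate B and with DESeq2. JKD, a zinc finger partner of SHR and SCR, was at 0.23 (edgeR adjusted p = 0.0172), CYCD6;1, a cyclin target, at 0.42 (SE 0.26), and RBR1, the retinoblastoma-related partner, at 0.16, none of them called.

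Several of these genes also differed between the lengths of mock treatment, and that comparison uses the same 24 h mock libraries. In 24 h mock against 1 h mock, 17 of 27 list genes tested were called, beside 24.5% of all genes. AT1G34110 had a log2 fold change of 1.62 in 24 h mock against 1 h mock (edgeR adjusted p = 1.04e-06), AT5G56040 one of 1.08 and AT4G26540 one of 0.82, and NTT one of 0.68. WIP4 gave -1.88 (edgeR adjusted p = 1.71e-06) and MYB36 gave -1.10 (edgeR adjusted p = 0.000592). WOX5 gave 0.18 and was not called (edgeR adjusted p = 0.206). Since both comparisons share the 24 h mock libraries, their signs are not independent of each other.

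Markers of several cell types were also read at 24 h, and not all of them moved. Over all genes tested at 24 h, 6.77% were called higher and 8.76% lower. The 4 callus and lateral root primordium markers LBD16, LBD18, LBD29 and PUCHI all fell (log2 fold changes -0.57, -0.71, -1.85 and -0.96), and their summed level was 498 and 495 CPM in 24 h dex, against 877 and 863 CPM in 24 h mock. That sum was 511 to 704 CPM in the 1 h and 6 h libraries. Of the 4 root cap markers, SMB, BRN1 and BRN2 fell and FEZ rose. They summed to 63.9 and 54.4 CPM in 24 h dex, against 107 and 105 CPM in 24 h mock. FEZ had 9.92 and 7.90 CPM in 24 h dex and 4.38 and 4.35 CPM in 24 h mock, but 8.12 and 8.37 CPM in 1 h mock. The 4 floral organ markers summed to 36.6 and 30.5 CPM in 24 h dex, against 14.0 and 13.4 CPM in 24 h mock, with AP1 and PI higher and AP3 and AG too low to be tested. Of the shoot meristem markers, STM had 32 and 11 reads in 24 h dex, against 0 and 0 reads in 24 h mock, while CLV3 had 0 reads in all of these libraries and WUS had 0 and 3 reads in 24 h dex, against 2 and 0 in 24 h mock. The 3 leaf markers summed to 26.2 and 24.4 CPM in 24 h dex, against 26.4 and 22.0 CPM in 24 h mock, with RBCS1A higher (log2 fold change 0.48), LHCB1.3 lower (-0.79) and LHCB2.1 at -1.49 and not called. The part of these cell types in the changes of PLT1, PLT5 and PLT7 was not tested.

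The genes most like each changed member were found by the root mean square (RMS) difference of log2 CPM, centred on the mean of the 12 libraries, among 17934 genes. PLT1 was nearest to emb1427 (AT1G80260, RMS 0.061) and MEE32 (AT3G06350, 0.065). PLT5 was nearest to AT2G33620 and PUB25 (AT3G19380), both at an RMS of 0.081. PLT7 was nearest to AT1G28400 (RMS 0.085) and SARK (AT4G30520, 0.098). For scale, the RMS deviation of each member from its own mean was 0.178 for PLT1, 0.337 for PLT5 and 0.422 for PLT7. These genes were picked for their likeness over the same 12 libraries, so their values are a description.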

How the data were processed

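RNA-seq was done on 12 libraries, 2 per group. The authors trimmed reads (Trimmomatic 0.36), checked them (FastQC 0.11.5), aligned them to TAIR10 with STAR 2.5.3a and counted reads per gene with HTSeq 0.7.2, per the labels' processing notes, without strand and with an alignment quality of at least 30, and deposited raw counts per gene. The rows of the deposited counts that name no gene (10.4% to 27.0% of tallied reads) were left out of library sizes and tests. Reads of overlapping genes on opposite strands could not be told apart.

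Counts were tested with edgeR 4.0.16 in R 4.3.3 (filterByExpr, TMM scaling, glmQLFit and glmQLFTest, Benjamini-Hochberg adjustment over all genes tested, calls under 0.01), with 4 libraries per time point, or 12 for differences between treatment times and between mock groups. CPM and RPKM used TMM-scaled library sizes, and RPKM the summed exon length of RefSeq TAIR10.1. DESeq2 1.42.0 was an alternative. Other alternatives were the scaling, the filter on low counts, the threshold, thinning to 18511462 reads, leaving out each library and a replicate block. The text names the 7 genes, called genes of the 4 lists (at most 4 each, by size of change) and the 2 nearest in pattern (mean of at least 50 counts, pseudocount 0.5 CPM) for each called member, and list genes outside this rule were named after their values were seen. The alike promoter stretch is the best ungapped segment over all pairs of members, and this search was also added after the data were seen. The 7 genes and the lists were chosen with earlier results of these data known. With 2 against 2 libraries an exact permutation test cannot go below p = 0.333, so it was not used. The markers of 1 root cell type are not reported here.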

Additional observations from a re-analysis of the deposited data

Results flagged for a closer look

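The response of PLT5 to dexamethasone differed between times: its log2 fold change, dex over mock, was lower at 24 h than at 1 h by a difference of -0.87 (SE 0.15, edgeR adjusted p = 0.00414 from the interaction term over 12 libraries). The same test gave -0.55 for PLT7 (SE 0.10, edgeR adjusted p = 0.00714). Each call was lost when certain single libraries were left out, as given above. Groups of 2 libraries are too small for a test of outlying libraries.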

How the results depend on the processing

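The 3 calls at 24 h were kept under DESeq2, RLE scaling, both filters on low counts, thinning to the smallest library and the replicate block, and each gene's direction held. The exceptions were PLT1, not called in the fit over 12 libraries or without mock replicate B, and PLT3, called in addition under some settings. Requiring a log2 change of at least 1 left 0 of the 7 genes called at 24 h, 0 of the RGF list and 1 of the niche list (WIP4). Over all genes it left 804 of 19288. The letters A and B do not say what they pair, and their deviations from the group means gave correlations of 0.627 (1 h), -0.083 (6 h) and 0.066 (24 h), over 0.1 for 1 of the 3 times. With the replicate block, edgeR called 413, 84 and 3447 genes at 1 h, 6 h and 24 h, among them 2 of the RGF list at 1 h and 2 of the SHR-SCR list at 24 h, and PLT3 at 24 h (-0.16, adjusted p = 0.00242).

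DESeq2 called 1 of the niche list at 6 h and 0 of the SHR-SCR list at 24 h, also with shrinkage. The fit over 12 libraries called 2 of the RGF list at 24 h (1546 of 21241 over all genes). A threshold of 0.05 called 2 of the SHR-SCR list (4332 of 19288 over all genes). For the response at 24 h minus 6 h, 2 of the 7 genes were called with no filter (1664 of 28650 over all genes) and with at least 10 counts in each library (941 of 18138). DESeq2 called 2 there (1654 of 28650) and a threshold of 0.05 called 3 (1968 of 21241). For mock at 6 h against 1 h, 2 were called with no filter (4142 of 28650) and 2 at 0.05 (5395 of 21241). Directions of uncalled genes turned for SCR at 24 h minus 1 h (0.016 with at least 10 counts, 0.033 thinned) and for PLT2 in mock at 6 h against 1 h (0.061 thinned).

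With each library left out, the number of the 7 genes called ran from 0 to 5 at 6 h (5 without mock replicate A), 0 to 2 for 24 h minus 1 h, 0 to 2 for 24 h minus 6 h, 0 to 1 for mock at 6 h against 1 h and 1 to 2 for mock at 24 h against 1 h. The RGF list ran from 0 to 3 at 1 h. At 6 h the relatives ran from 0 to 1, the SHR-SCR list from 0 to 6, the RGF list from 0 to 2 and the niche list from 0 to 3. The SHR-SCR list ran from 0 to 2 at 24 h. A lone library is then assumed to vary like the others. The highest counts at 6 h came from the fit without mock replicate A. That fit also called far more of all genes than the fit with all 4 libraries, as given above. These leave-one-out counts are therefore not read as results about the 7 genes or the lists. Log2 fold changes of uncalled genes crossed 0 for SHR (-0.034 to 0.25 at 1 h, -0.32 to 0.017 at 6 h, -0.20 to 0.040 at 24 h), SCR (-0.072 to 0.12 at 1 h, -0.056 to 0.12 at 24 h), PLT3 (-0.15 to 0.026 at 6 h) and PLT2 (-0.014 to 0.19 at 24 h). They did so for PLT2 (-0.16 to 0.084) and PLT7 (-0.14 to 0.013) at 6 h minus 1 h, for PLT3 (-0.20 to 0.0023) and SHR (-0.10 to 0.26) at 24 h minus 6 h, and for SCR at 24 h minus 1 h (-0.12 to 0.10). In mock, PLT2 (-0.12 to 0.10) and SCR (-0.084 to 0.21) crossed 0 at 6 h against 1 h, and SHR (-0.16 to 0.013) at 24 h against 1 h. The cause was not tested for any of these.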

Other observations

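In 24 h mock against 1 h mock, 5 genes of that list were higher and 3 lower of 11 tested (edgeR over 12 libraries, adjusted p under 0.01), where 24.5% of all genes were called. The higher ones were UBP16 and the kinase genes AT3G24240, AT4G26540, AT5G56040 and AT1G34110, and the lower ones were RGF2, RGF3 and the kinase gene AT5G48940. RGF3, a root meristem growth factor gene, had 16 and 8 reads in 24 h mock, against 204 and 107 reads in 1 h mock (log2 fold change -2.71, SE 0.58, adjusted p = 0.00413). RGF2 had 0 and 0 reads in 24 h mock, against 165 and 127 reads in 1 h mock. The 24 h libraries were shallower, which CPM allows for. AT3G24240 had a log2 fold change of 0.94 (SE 0.074) and UBP16 one of 0.27 (SE 0.063).

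Some genes that work with SHR and SCR were lower in the same comparison. NUC, a zinc finger target, had 5.78 and 5.59 CPM in 24 h mock, against 10.8 and 13.9 CPM in 1 h mock (log2 fold change -1.11, SE 0.17, edgeR adjusted p = 0.00039). MGP, another of these targets, had 13 and 11 reads in 24 h mock, against 94 and 102 reads in 1 h mock (log2 fold change -2.03, SE 0.32, edgeR adjusted p = 0.000559). With MYB36, 3 of 10 genes of the list were lower and 1 (AT3G08947) was higher. Over all 21241 genes tested, 3038 were called lower and 2159 higher. SHR and SCR themselves gave -0.07 and -0.20 and were not called. ANT and BBM were both lower, with log2 fold changes of -0.50 and -0.26. The list genes in these sentences were named after their values were seen, and any batch that goes with the length of treatment cannot be told apart from it.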
